A study of Mus musculus with 20 samples.

Results

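Expression of 37 genes of DNA replication and mitosis was followed in livers of adult mice with and without Crem, the gene of the cAMP responsive element modulator. A gene entered when its symbol was on a list of proliferation genes and a probe set of the array was assigned to that gene alone. Of the 37 genes listed, 35 had a value, out of 19661 genes with a single-gene probe set. Pcna has 2 probe sets listed under its name, both without values, and no probe set is listed under the name Ccnb1. Top2a was the only one of the 35 with a second probe set.

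Whole liver RNA of 20 mice was hybridised to Affymetrix Mouse Gene 1.0 ST arrays, 1 array per mouse. WT mice and Crem-/- mice, called KO here, had a mixed background (129Pas x C57Bl/J), were 8 weeks old, untreated, and lived in 12 h of light and 12 h of darkness with free food and water. Each genotype was sampled when the light came on (0 h) and when it went off (12 h), with 5 mice in each of the 4 groups. The labels give neither the sex of the mice nor the part of Crem that was deleted, and the null allele was present in the whole animal. Values are log2 levels, and differences are on the log2 scale unless given as a fold.

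A cell that starts to divide first makes cyclin E and E2F, loads the MCM helicase onto origins with Cdc6 and Cdt1, and raises its supply of deoxynucleotides. Cyclin A, cyclin B and Cdk1 then drive entry into mitosis, where Aurora and Polo kinases, kinesins and the spindle checkpoint separate the chromosomes. Most hepatocytes of an adult liver rest outside this cycle and return to it after loss of tissue. Transcription of the replication genes is known to depend on E2F, and that of the mitotic genes on NF-Y, which binds CCAAT, and on the MuvB complex, which binds the cell cycle homology region TTTGAA. CREM binds the cAMP responsive element (CRE) TGACGTCA and its shorter form TGACG.

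The stretches before the start sites of 4 genes are shown because they hold the main arrangements of these letters: Rrm2 and Plk1, which changed most with time in either direction, Cdk1 as a mitotic gene with several boxes, and Mcm5 as a replication gene with a whole CRE. They are RefSeq sequences of build GRCm38.p6, 250 bases up to the start, written 5′ to 3′ on the strand of the gene. Capitals mark, on either strand, the NF-Y box CCAAT, the cell cycle homology region TTTGAA, the letters TTCCCGC known from E2F sites, a second such form, TTTGGCG, and both forms of the CRE. Rrm2 lies on the plus strand at chr12:24708004-24708253, Plk1 on the plus strand at chr7:122159185-122159434, Cdk1 on the minus strand at chr10:69352913-69353162 and Mcm5 on the plus strand at chr8:75109259-75109508.
Rrm2: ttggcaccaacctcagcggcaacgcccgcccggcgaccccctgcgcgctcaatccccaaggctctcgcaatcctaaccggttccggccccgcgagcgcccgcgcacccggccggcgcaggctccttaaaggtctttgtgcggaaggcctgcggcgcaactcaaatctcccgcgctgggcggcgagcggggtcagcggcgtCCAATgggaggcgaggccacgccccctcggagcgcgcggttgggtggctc
Plk1: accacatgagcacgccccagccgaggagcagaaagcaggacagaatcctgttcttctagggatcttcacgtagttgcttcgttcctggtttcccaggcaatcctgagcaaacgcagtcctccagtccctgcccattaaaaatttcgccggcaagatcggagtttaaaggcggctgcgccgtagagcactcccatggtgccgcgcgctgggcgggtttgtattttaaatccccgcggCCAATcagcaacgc
Cdk1: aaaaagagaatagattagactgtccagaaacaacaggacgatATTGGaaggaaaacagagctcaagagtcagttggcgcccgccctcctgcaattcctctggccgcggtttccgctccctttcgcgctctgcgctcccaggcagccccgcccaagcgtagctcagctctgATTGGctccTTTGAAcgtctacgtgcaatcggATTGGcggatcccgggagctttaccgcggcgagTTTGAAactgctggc
Mcm5: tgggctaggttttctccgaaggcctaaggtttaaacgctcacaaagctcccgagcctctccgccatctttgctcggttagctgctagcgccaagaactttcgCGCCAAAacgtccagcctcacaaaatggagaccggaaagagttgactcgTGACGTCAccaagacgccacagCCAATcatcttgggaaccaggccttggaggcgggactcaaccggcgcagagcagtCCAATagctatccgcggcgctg

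In the Cdk1 stretch CCAAT stood 3 times as its reverse complement, beginning 208, 80 and 48 bases before the start, and TTTGAA stood at 71 and 15. Rrm2 had 1 CCAAT beginning 50 bases before the start, and Plk1 had 1 at 14. The Plk1 stretch shown holds no TTTGAA, but its whole window, which runs 50 bases past the start, does. Mcm5 had CCAAT at 77 and 22, the E2F letters TTTGGCG as the reverse complement at 148, and the whole CRE at 99, which contains TGACG on both strands. These are matches of letters in one window, with no measurement of a bound factor.

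Over the whole windows, which add 50 bases after the start, 30 of the 35 measured genes could be searched, and Ccna2, Tpx2, Mcm4, Kif20a and Aurkb have no entry. CCAAT was found in 22 of the 30 genes, or 73.3%, against 41.1% of all 27025 genes with a window. TTTGAA was found in 14 of 18 mitosis genes (77.8%) and in 1 of 12 G1/S and replication genes (8.33%), against 20.2% of all genes. TTCCCGC and TTTGGCG, both E2F letters, were found in 5 and 4 of the 12 G1/S and replication genes and in 0 of the 18 mitosis genes, against 5.29% and 1.77% of all genes. TTCCCGC stood in Cdc6, Cdt1, Mcm3, Mcm7 and Rrm1, and TTTGGCG in Cdt1, Mcm3, Mcm5 and Mcm6. The shorter CRE form TGACG was found in 10 of the 30 genes (33.3%, all genes 23%), and the whole CRE in Cenpe and Mcm5 (6.67%, all genes 2.03%). TGACG overlaps the whole CRE, so both genes count for both.

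The 20 arrays correlated pairwise between 0.969 and 0.994 over the 25689 probe sets with values, and their medians lay between 7.07 and 7.24. Crem itself read 8.11 to 8.54 in WT and 7.43 to 8.17 in KO at 0 h, and 7.90 to 8.02 in WT and 7.39 to 7.83 in KO at 12 h. Its groups overlapped at 0 h and did not at 12 h. No source used here says whether its probes lie in the deleted part. All 19 measured hepatocyte markers lay in the brighter part of the array, above the median of all probe sets. Of the proliferation genes 12 of 35 did, and of lymphocyte markers 0 of 16. Probe sets differ in how strongly they bind, so such a position is not an amount of RNA. The 0 h arrays came from the batches labelled 1 to 4 and all 12 h arrays from batch 5, so time and batch cannot be told apart in any comparison of time.

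Time was compared in WT, in KO and over both genotypes. Rrm2 was the gene of the list that moved most, by 1.13 over both genotypes, or 2.18-fold, and Ccne1 and Cdt1 rose by 0.38 and 0.25. Plk1, Aurkb, Kif20a, E2f1 and Aurka fell by 0.30, 0.26, 0.22, 0.21 and 0.18. The other 27 measured genes, Mki67, Top2a, Cdk1 and Ccna2 among them, did not pass the test over both genotypes. Calls are limma tests with Benjamini-Hochberg adjustment over all 25689 probe sets at 0.05.

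The share of genes called was below that of the whole array. The comparison was not matched for level, and only 12 of the 35 genes lay above the median of all probe sets. In WT 4 of the 35 genes were called (11.4%), Rrm2 higher and Plk1, Aurkb and Aurka lower, against 27.8% of all probe sets. In KO 3 were called (8.57%), Rrm2, Ccne1 and Cdt1, all higher, against 20.3%. Over both genotypes 8 were called (22.9%), 3 higher and 5 lower, against 39.3%. That split turned with the scaling of the arrays, to 5 higher and 1 lower both after quantile normalization and when each array was centred on its median. The median difference of the 35 genes over both genotypes was -0.06 against -0.03 for all probe sets, and with centred arrays it was 0.01 against 0.05.

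**Figure D1:**
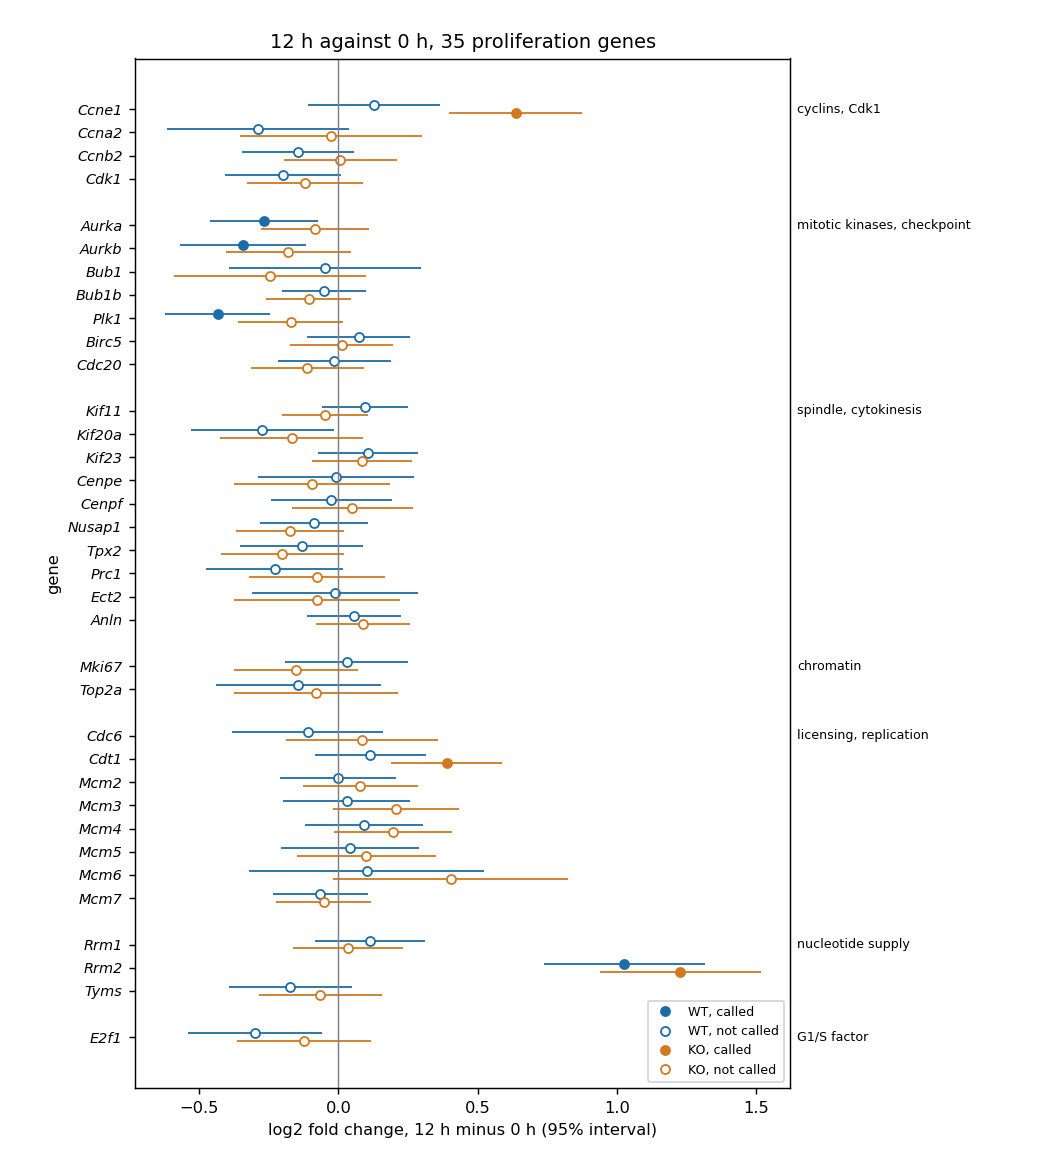
Log2 fold change from 0 h to 12 h (x axis) of the 35 measured genes, grouped by role, in WT (blue) and KO (orange). Bars are 95% intervals of the limma fit and filled points were called. Rrm2 stands at 1.03 and 1.23, and most other intervals include 0.

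Rrm2, the small subunit of ribonucleotide reductase, which makes deoxynucleotides, read 7.44, 7.59, 7.92, 7.96 and 8.06 in WT at 0 h and 8.61, 8.69, 8.78, 8.89 and 9.12 at 12 h. The KO mice read 7.38, 7.61, 7.62, 7.63 and 7.99 at 0 h and 8.55, 8.78, 8.82, 8.97 and 9.26 at 12 h. All 10 mice of 12 h lay above all 10 of 0 h. The rise was 1.03 in WT (SE 0.139, limma adjusted p = 1.33e-05), or 2.04-fold, and 1.23 in KO (SE 0.139, adjusted p = 1.47e-06), or 2.34-fold. Its difference between the genotypes, 0.20 with a 95% interval of -0.21 to 0.61, did not pass (limma adjusted p = 0.877). Means of Rrm2 in the 4 batches of 0 h differed by at most 0.27.

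Rrm1, the large subunit of the same enzyme, and Tyms, thymidylate synthase, were not called. Rrm1 differed by 0.11 in WT and 0.03 in KO (limma adjusted p = 0.396 and 0.84), and Tyms by -0.17 and -0.06 (adjusted p = 0.241 and 0.722). The gap between the subunits of the enzyme was not tested.

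Ccne1, cyclin E1, which starts S phase with Cdk2, read 7.00, 7.12, 7.15, 7.28 and 7.32 in KO at 0 h and 7.61, 7.61, 7.70, 7.87 and 8.25 at 12 h. In WT it read 6.90, 7.10, 7.13, 7.29 and 7.43 at 0 h and 7.15, 7.16, 7.36, 7.38 and 7.43 at 12 h. The KO groups did not overlap and the WT groups did. The rise was 0.64 in KO (SE 0.114, limma adjusted p = 0.00032) and the difference in WT was 0.13 (adjusted p = 0.431). KO mouse 55 was the highest of the 20 mice.

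Cdt1, which loads the MCM helicase and is broken down once S phase begins, read 7.02, 7.17, 7.18, 7.25 and 7.38 in KO at 0 h and 7.37, 7.55, 7.57, 7.65 and 7.78 at 12 h. In WT it read 7.15, 7.19, 7.25, 7.27 and 7.36 at 0 h and 6.98, 7.34, 7.48, 7.49 and 7.49 at 12 h. In KO the groups met at 1 mouse on each side, and in WT mouse 168 at 12 h was the lowest of all 20. The rise was 0.39 in KO (SE 0.0963, limma adjusted p = 0.00565), and in WT the difference was 0.11 (adjusted p = 0.397). The difference between these did not pass.

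Plk1, the Polo kinase of mitotic entry, read 6.74, 6.81, 6.81, 6.83 and 7.02 in WT at 0 h and 6.06, 6.37, 6.40, 6.61 and 6.61 at 12 h. In KO it read 6.72, 6.76, 6.80, 6.87 and 6.88 at 0 h and 6.44, 6.62, 6.68, 6.68 and 6.75 at 12 h. The WT groups did not overlap, while in KO the highest mouse of 12 h lay above the lowest of 0 h. Plk1 fell by 0.43 in WT (SE 0.0911, limma adjusted p = 0.00126), and in KO the difference was -0.17 (adjusted p = 0.198). The difference between these, 0.26, did not pass (adjusted p = 0.735).

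Aurkb, the kinase of the chromosomal passenger complex, read 6.95, 6.99, 7.00, 7.07 and 7.38 in WT at 0 h and 6.41, 6.66, 6.75, 6.86 and 6.99 at 12 h. In KO it read 6.94, 6.99, 7.24, 7.26 and 7.27 at 0 h and 6.77, 6.87, 6.96, 7.07 and 7.13 at 12 h. Groups overlapped in both genotypes. Aurkb fell by 0.34 in WT (limma adjusted p = 0.0221), and in KO the difference was -0.18 (adjusted p = 0.262). The difference between these did not pass. Over both genotypes Aurkb fell by 0.26 (limma adjusted p = 0.0097). Batch means of 0 h spanned 0.34, which is more than that difference.

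Aurka, the kinase of the spindle poles, read 7.24, 7.37, 7.45, 7.52 and 7.63 in WT at 0 h and 6.98, 7.04, 7.09, 7.34 and 7.42 at 12 h. In KO it read 7.39, 7.43, 7.45, 7.55 and 7.64 at 0 h and 7.26, 7.33, 7.39, 7.46 and 7.60 at 12 h. Both pairs of groups overlapped. It fell by 0.27 in WT (limma adjusted p = 0.036), and in KO the difference was -0.08 (adjusted p = 0.58). The difference between these did not pass. Over both genotypes Aurka fell by 0.18 (limma adjusted p = 0.039). The call over both genotypes was lost with batch as a random block (limma adjusted p = 0.0611), and the call in WT with only the WT arrays in the fit (adjusted p = 0.0793).

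Kif20a, a kinesin of cytokinesis, read 6.29, 6.48, 6.64, 6.83 and 6.99 in WT at 0 h and 6.21, 6.30, 6.38, 6.43 and 6.54 at 12 h. In KO it read 6.29, 6.35, 6.46, 6.60 and 6.64 at 0 h and 5.99, 6.08, 6.44, 6.47 and 6.52 at 12 h. The groups overlapped, and the fall over both genotypes was 0.22 (limma adjusted p = 0.0492), just inside the threshold and within the span of the 0 h batch means, 0.24. With batch as a random block it was not called (limma adjusted p = 0.0739).

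E2f1, a transcription factor of the G1/S genes, read 7.12, 7.15, 7.23, 7.28 and 7.51 in WT at 0 h and 6.81, 6.88, 6.99, 7.03 and 7.09 at 12 h. In KO it read 6.87, 7.15, 7.20, 7.30 and 7.38 at 0 h and 6.73, 6.87, 7.06, 7.20 and 7.43 at 12 h. The WT groups did not overlap and the KO groups did. It fell by 0.21 over both genotypes (limma adjusted p = 0.0451), and the WT difference of -0.30 did not pass (adjusted p = 0.059). With batch as a random block the call over both genotypes was lost (limma adjusted p = 0.0693), and with only the WT arrays in the fit the WT difference was called (adjusted p = 0.0305).

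Groups that did not overlap were counted for 3 of the 35 genes in WT, Rrm2, Plk1 and E2f1, against 17.5% of all probe sets, and for 2 genes in KO, Rrm2 and Ccne1, against 16.4%.

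**Figure D2:**
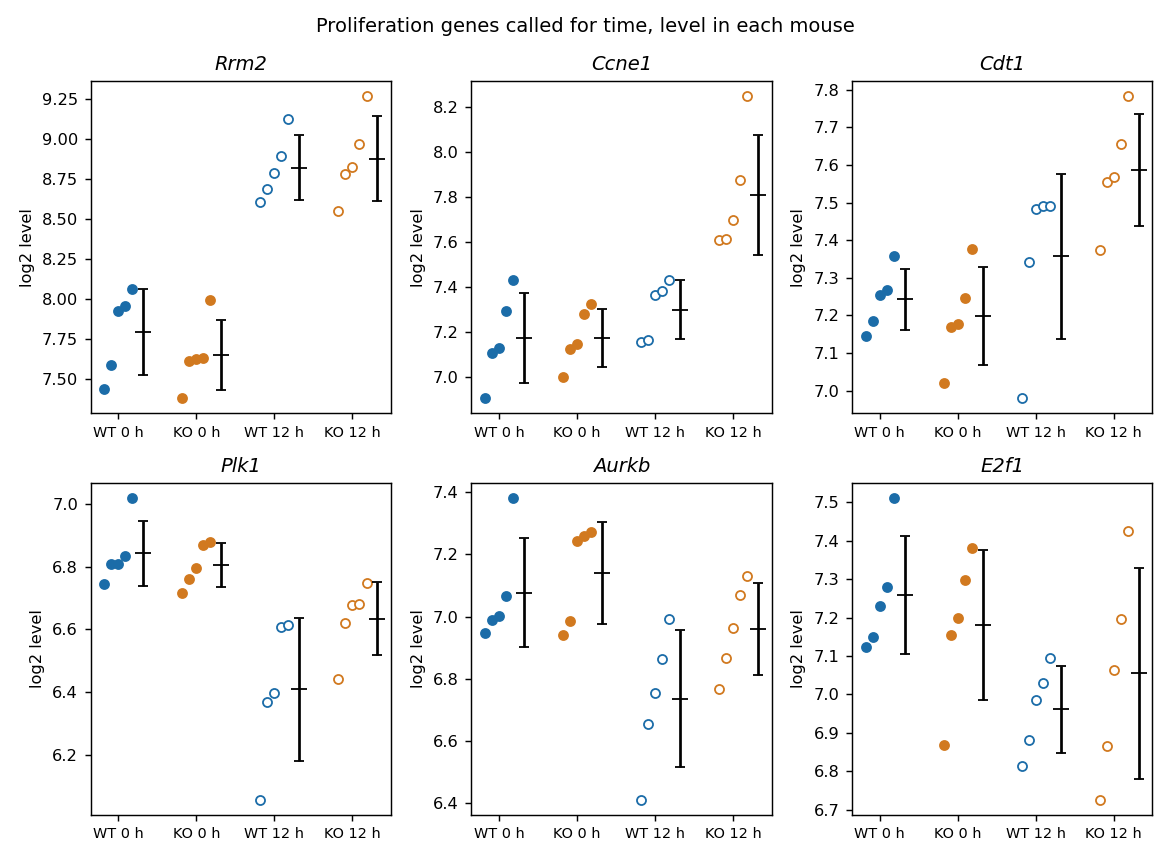
Log2 level (y axis) of 6 genes called for time over both genotypes, a point per mouse, WT in blue and KO in orange, filled at 0 h and open at 12 h. Black marks are the group mean and SD, and Rrm2 is the only one in which the 12 h mice lie above the 0 h mice in both genotypes.

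Rrm2, Ccne1, Cdt1 and Plk1 remained called over both genotypes when each array was centred on its median, with differences of 1.20, 0.45, 0.32 and -0.23. Aurkb, Aurka, Kif20a and E2f1 did not (-0.19, -0.10, -0.15 and -0.14, limma adjusted p = 0.0561, 0.224, 0.184 and 0.189). Kif23, a kinesin of the central spindle, and Mcm4, a helicase subunit, became called, with rises of 0.17 and 0.22 (limma adjusted p = 0.0362 and 0.025) where the values as deposited gave 0.10 and 0.14 (adjusted p = 0.222 and 0.12). Quantile normalization called the same 6 genes. The mean of the array medians was itself 0.0732 lower at 12 h. The call over both genotypes was lost in 13 of 20 fits that each left out 1 mouse for E2f1, in 12 for Kif20a and in 11 for Aurka, and in 0 for Rrm2, Ccne1, Cdt1, Plk1 and Aurkb.

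The textbook markers of dividing cells overlapped between all groups. Mki67, the nuclear antigen of cycling cells, read 5.83, 5.91, 5.97, 6.16 and 6.28 in WT and 5.89, 6.04, 6.07, 6.16 and 6.37 in KO at 0 h. At 12 h it read 5.78, 6.04, 6.09, 6.13 and 6.26 in WT and 5.76, 5.85, 5.90, 6.12 and 6.12 in KO. All 4 groups overlapped. The difference of 12 h from 0 h over both genotypes was -0.06 with a 95% interval of -0.22 to 0.10, and that of KO from WT was -0.01 with an interval of -0.17 to 0.14.

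Top2a, the topoisomerase that untangles sister chromosomes, read 6.41, 6.43, 6.54, 6.56 and 6.64 in WT and 6.09, 6.44, 6.57, 6.58 and 6.77 in KO at 0 h. At 12 h it read 6.05, 6.17, 6.42, 6.55 and 6.67 in WT and 6.10, 6.26, 6.31, 6.46 and 6.93 in KO. All groups overlapped, and the spread was wider at 12 h. The brighter probe set differed by -0.11 with time over both genotypes (limma adjusted p = 0.393). The second, dim one (mean level 3.82) rose by 0.32 (adjusted p = 0.00376), so the 2 probe sets of Top2a disagree in sign.

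Ccna2, cyclin A2 of S and G2 phase, read 6.21, 6.27, 6.33, 6.53 and 6.71 in WT and 6.08, 6.47, 6.56, 6.60 and 6.60 in KO at 0 h. At 12 h it read 5.65, 5.97, 6.21, 6.31 and 6.47 in WT and 5.99, 6.21, 6.55, 6.65 and 6.79 in KO. All groups overlapped. Its differences were -0.16 with time (limma adjusted p = 0.274) and 0.18 with genotype (adjusted p = 0.591), both over all mice.

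Cdk1, the kinase of mitotic entry, read 6.88, 6.99, 7.08, 7.17 and 7.28 in WT and 7.08, 7.09, 7.09, 7.11 and 7.27 in KO at 0 h. At 12 h it read 6.53, 6.78, 6.90, 7.07 and 7.11 in WT and 6.91, 6.94, 6.94, 7.00 and 7.24 in KO. Groups overlapped throughout. With time it differed by -0.16 over both genotypes (limma adjusted p = 0.0766), and with genotype by 0.09 (adjusted p = 0.695).

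**Figure D3:**
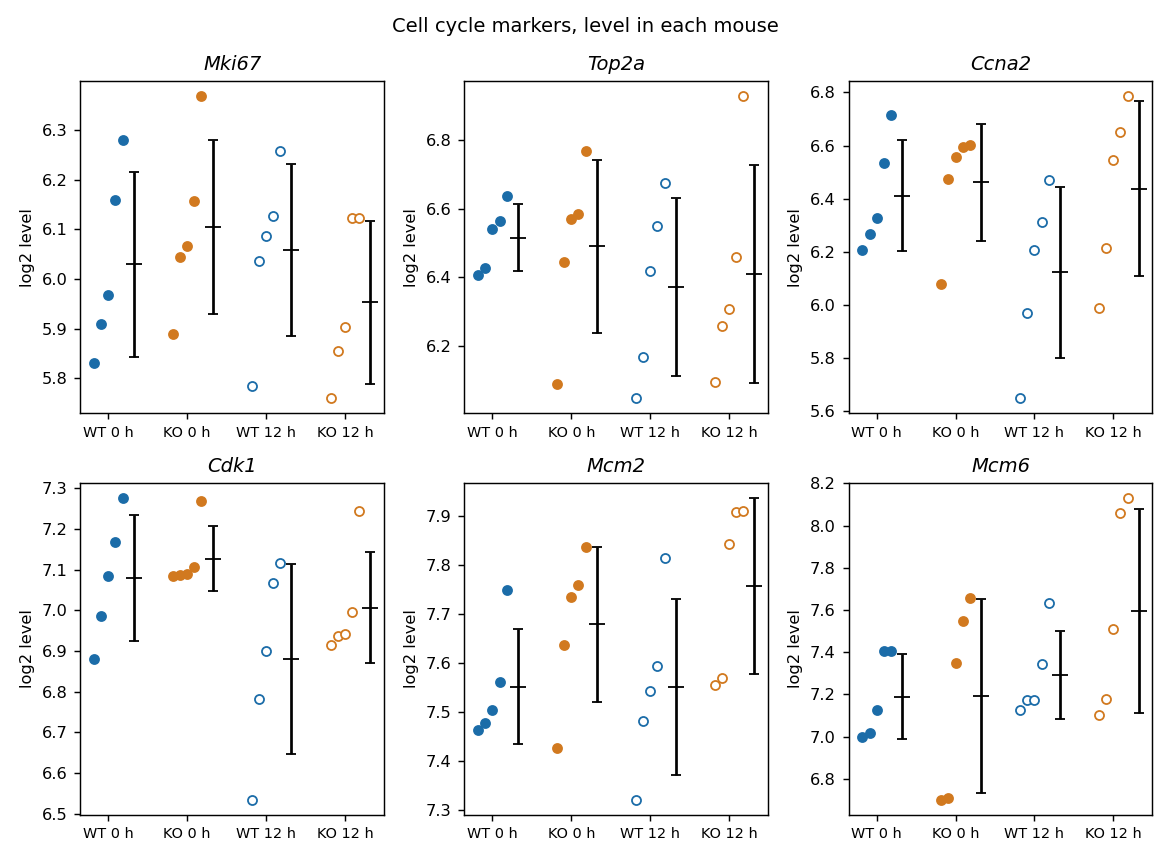
Log2 level (y axis) of 6 textbook cell cycle genes, a point per mouse, WT in blue and KO in orange, filled at 0 h and open at 12 h, with group mean and SD in black. The groups overlap in each panel, and Mcm6 has the widest spread within groups.

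Mcm2 and Mcm6 are subunits of the replicative helicase. Mcm2 read 7.46, 7.48, 7.50, 7.56 and 7.75 in WT and 7.43, 7.64, 7.73, 7.76 and 7.84 in KO at 0 h, and 7.32, 7.48, 7.54, 7.59 and 7.82 in WT and 7.56, 7.57, 7.84, 7.91 and 7.91 in KO at 12 h. Mcm6 read 7.00, 7.02, 7.12, 7.40 and 7.40 in WT and 6.70, 6.71, 7.35, 7.55 and 7.66 in KO at 0 h, and 7.13, 7.17, 7.18, 7.35 and 7.63 in WT and 7.10, 7.18, 7.51, 8.06 and 8.13 in KO at 12 h. Groups overlapped for both genes, and the KO mice spread more widely than the WT mice for Mcm6. Over both genotypes Mcm2 differed with time by 0.04 and Mcm6 by 0.25 (limma adjusted p = 0.691 and 0.169). Means of the 0 h batches spanned 0.56 for Mcm6.

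Of the remaining members, Ccnb2, Bub1, Bub1b, Birc5, Cdc20, Kif11, Kif23, Cenpe, Cenpf, Nusap1, Tpx2, Prc1, Ect2, Anln, Cdc6, Mcm3, Mcm4, Mcm5 and Mcm7 were not called for time in any of the 3 comparisons with the values as deposited. By role, 3 of 7 genes of mitotic kinases and checkpoint, 1 of 10 of spindle and cytokinesis and the single factor E2f1 were called lower over both genotypes. Of the rest, 1 of 4 cyclin and Cdk1 genes, 1 of 8 of licensing and replication and 1 of 3 of nucleotide supply were called higher. With the values as deposited 0 of the 22 mitosis genes were called higher (all probe sets 18.1%) and 4 lower (21.2%). With centred arrays Kif23 was called higher and Plk1 lower, against 26.1% and 12% of all probe sets, and with quantile normalization it was the same pair, against 16.8% and 17.4%.

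Genes of the same processes outside the list were counted as well. Of 55 other mitosis genes 5 were called higher and 7 lower over both genotypes, and of 45 other replication genes 13 higher and 9 lower. With centred arrays these were 7 and 5, and 19 and 1. Tk1, thymidine kinase, rose by 0.74, Gins1, a part of the helicase, by 0.48 and Dbf4, the activator of Cdc7, by 0.46 (limma adjusted p = 2.36e-06, 0.000166 and 0.000546). Among the mitosis genes Pttg1, securin, fell by 0.68 and Zwint, a kinetochore protein, by 0.60, while Smc4, a condensin subunit, rose by 0.51. Of 31 regulators of G1 and of cell cycle entry 11 were called higher and 5 lower, or 15 and 4 with centred arrays. Wee1, the kinase that holds Cdk1 inactive and a known target of the circadian clock, rose by 2.51 (5.68-fold, limma adjusted p = 6.16e-16). Cdk6 and E2f3 rose by 0.58 and 0.56, and Lin37, E2f8 and E2f2 fell by 0.42, 0.39 and 0.37. The share called was 21.8% of the other mitosis genes, 48.9% of the other replication genes and 51.6% of the regulators, beside 39.3% of all probe sets.

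Markers of other liver cells were counted over both genotypes beside the 39.3% of all probe sets called. Of 13 Kupffer cell and macrophage genes 9 were called lower and 2 higher (84.6%), with a median of -0.31. The mean of the 13 genes per mouse was 9.65 to 9.93 in WT at 0 h and 9.28 to 9.57 at 12 h, and in KO 9.46 to 9.90 and 9.37 to 9.67. As deposited, the WT ranges did not overlap and the KO ranges did. With the median of each array subtracted, the WT ranges overlapped too. The mean of the array medians was 0.087 lower at 12 h in WT and 0.0594 lower in KO. Of the 13 genes 9 were called in WT (all probe sets 27.8%) and 4 in KO (all probe sets 20.3%). The difference between the genotypes in this change was positive for 12 of the 13 genes (all probe sets 50.4%). Only 1 of the 13 had an unadjusted p under 0.05 for it, and 0 of all probe sets were called. Of 13 sinusoidal endothelial genes 5 were called higher and 2 lower (53.8%), of 13 stellate cell genes 3 higher and 4 lower (53.8%), and of 19 hepatocyte genes 5 higher and 6 lower (57.9%). The shares called lay below that of all probe sets for 14 genes of myeloid precursors and granulocytes (0 called), 16 lymphocyte genes (1 lower, 6.25%), 11 erythroid genes (2 higher and 1 lower, 27.3%) and 8 bile duct genes (3 lower, 37.5%). Their part in the results on time was not tested. In whole liver fewer cells of a type and less RNA per cell cannot be told apart.

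The comparison of KO with WT asks whether the loss of Crem changes these genes. None of the 35 was called at 0 h, at 12 h, over both times or for the difference between the times, where 0%, 0.0234%, 0.0117% and 0% of all probe sets were. At an unadjusted p under 0.05 there were 1, 7, 7 and 1 of the 35 genes. The median KO minus WT difference was 0.03 at 0 h and 0.07 at 12 h, and -0.0008 and 0.0013 for all probe sets. At 12 h 24 of the 35 differences were positive (68.6%), beside 50.4% of all probe sets, and 7 of the 35 (20%) had an unadjusted p under 0.05, beside 12.5%. With centred arrays 20 differences were positive, beside 37.9% of all probe sets, and with quantile normalization 19, beside 50.9%, and 3 genes had such a p in either. Since no call was made for nearly the whole array, the 0 calls are not particular to these genes.

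**Figure D4:**
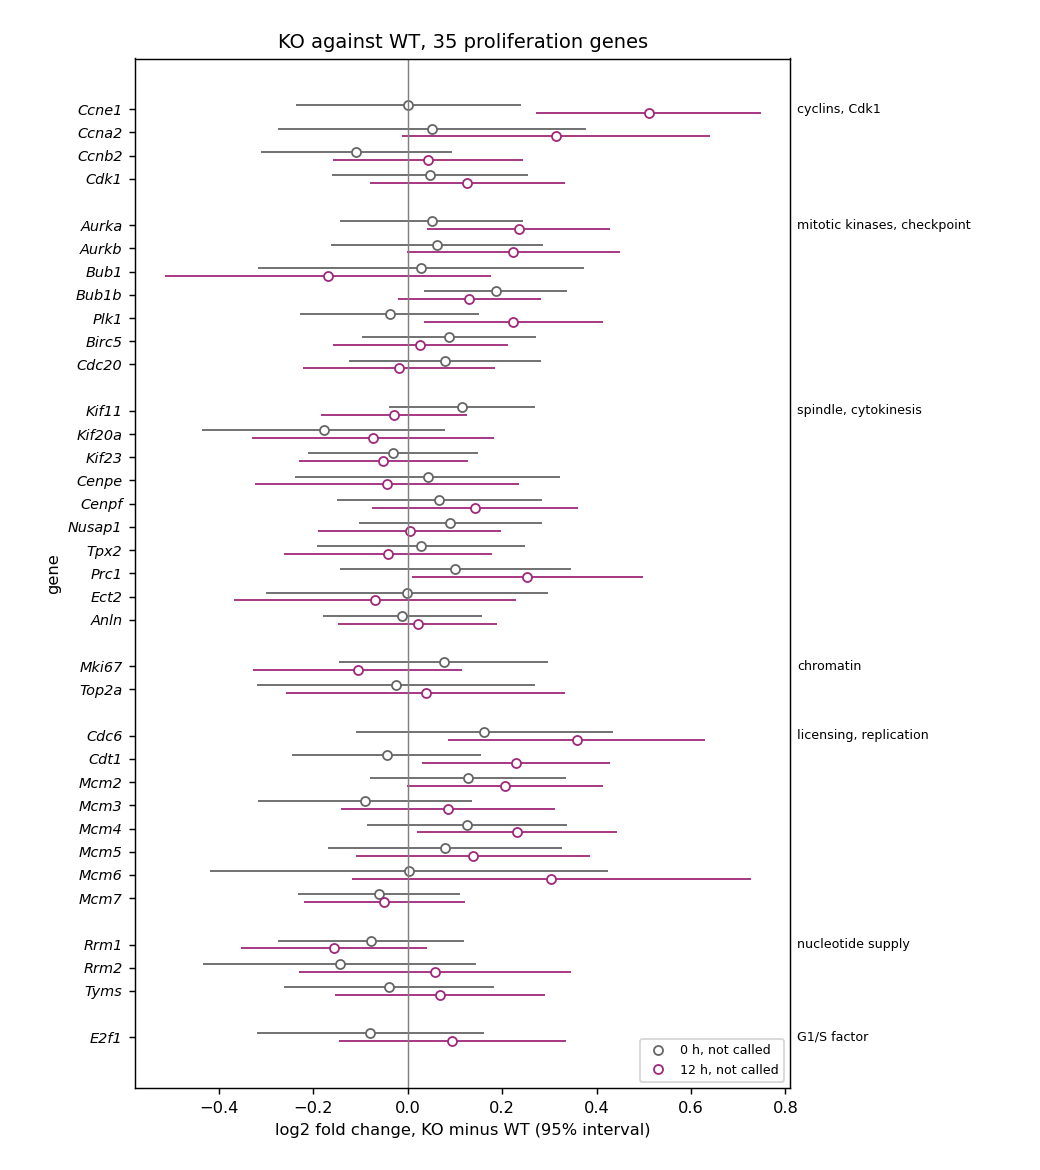
Log2 fold change of KO against WT (x axis) for the 35 measured genes by role, at 0 h (grey) and 12 h (purple), with 95% intervals of the limma fit. No point is filled since no gene was called, and Ccne1 at 12 h, at 0.51, is the farthest from 0.

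Ccne1, Cdc6 and Bub1b had the smallest unadjusted p over both times and are described as the leading genes. Ccne1, listed above by mouse, had a KO minus WT difference of 0.51 at 12 h (SE 0.114, 95% interval 0.27 to 0.75, limma adjusted p = 0.09), and the lowest KO mouse lay above the highest WT mouse. Of all probe sets 2.42% did not overlap at 12 h, and Ccne1 was the only one of the 35, while at 0 h 0 of the 35 and 0.728% of all probe sets did not overlap. At 0 h its difference was 0.0018 (95% interval -0.24 to 0.24), and within the 0 h batches it ran from -0.27 to 0.26. The difference between the times was 0.51 (limma adjusted p = 0.604).

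Cdc6, the loader of the MCM helicase, read 6.56, 6.90, 6.95, 7.00 and 7.07 in WT and 6.75, 6.92, 7.08, 7.18 and 7.37 in KO at 0 h. At 12 h it read 6.42, 6.65, 6.85, 6.99 and 7.02 in WT and 6.81, 7.10, 7.19, 7.24 and 7.37 in KO. At 12 h 4 KO mice lay above all WT mice. The difference over both times was 0.26 (SE 0.0927, limma adjusted p = 0.383). Within the 0 h batches it ran from -0.32 to 0.58, with 1 or 2 mice per genotype in each.

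Bub1b, BubR1 of the spindle checkpoint, read 6.35, 6.38, 6.39, 6.39 and 6.45 in WT and 6.45, 6.48, 6.54, 6.58 and 6.84 in KO at 0 h. At 12 h it read 6.25, 6.28, 6.30, 6.40 and 6.47 in WT and 6.33, 6.47, 6.48, 6.53 and 6.54 in KO. The groups met at 0 h and overlapped at 12 h. Over both times the difference was 0.16 (SE 0.0516, limma adjusted p = 0.335), and it was positive in each of the 5 batches, from 0.08 to 0.45. Bub1b was chosen by its p in these same data, so the shared sign is not separate support. The 0 h batches held 1 or 2 mice per genotype, and batch 5 is the whole comparison at 12 h.

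By role, the median KO minus WT difference at 12 h was 0.22 over 8 licensing and replication genes and -0.03 over 10 genes of spindle and cytokinesis. It was also 0.22 over 4 cyclin and Cdk1 genes, and 0.13 over 7 genes of mitotic kinases and checkpoint. The 3 genes of nucleotide supply had a median of 0.06, Mki67 and Top2a one of -0.03, and E2f1 differed by 0.09. Among the licensing and replication genes, Cdc6, Mcm4, Cdt1 and Mcm2 differed by 0.36, 0.23, 0.23 and 0.21, and Mcm7 by -0.05. At 0 h the same 8 genes had a median of 0.04. None of these differences passed.

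With the values as deposited, 45 of the 55 other mitosis genes were positive at 12 h (81.8%, median 0.09), beside 50.4% of all probe sets. Of the other replication genes 29 of 45 were (64.4%, median 0.06), with 0 called in either set. The median of the array medians at 12 h was 7.11 in WT and 7.16 in KO. Tk1 had a KO minus WT difference of -0.60 at 12 h and Cdc45 one of 0.33, and both missed the threshold (limma adjusted p = 0.0917 and 0.0924). All 13 sinusoidal endothelial genes had a negative KO minus WT difference over both times, with a median of -0.13 and 8 at an unadjusted p under 0.05, though 0 were called, and after quantile normalization 11 of the 13 were negative. At 12 h, with the values as deposited, the difference was positive for 12 of 14 genes of myeloid precursors and granulocytes (85.7%), 9 of 11 erythroid genes (81.8%) and 11 of 16 lymphocyte genes (68.8%), shares as large as that of the proliferation genes or larger. In that order 1, 2 and 0 genes had an unadjusted p under 0.05, and 10, 3 and 10 were positive at 0 h. Other lists at 12 h had 8 of 13 Kupffer cell and macrophage genes (61.5%), 6 of 19 hepatocyte genes and 4 of 13 stellate cell genes positive. For bile duct genes it was 3 of 8, and for sinusoidal endothelial genes 1 of 13. The part of these lists in the differences of the proliferation genes was not tested.

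Single mice were compared within their group. For each mouse the number of the 35 genes in which it was the highest or the lowest of 5 was counted. KO mouse 109 at 12 h was the highest in 16 genes (45.7%) and the lowest in 0, while over all probe sets it was the highest in 16.9%. The genes in this mouse lay on average 0.13 above the mean of its group, by 0.11 for mitosis genes and 0.16 for G1/S and replication genes. In KO mouse 1 at 0 h the mean deviation was -0.10, and it was the lowest in 12 genes (34.3%, all probe sets 18.7%) and the highest in 0 (all probe sets 19.9%). WT mouse 78 and KO mouse 76, both at 0 h, were each the highest in 12 genes (34.3%), beside 21.2% and 21.3% of all probe sets. KO mouse 166 at 12 h, WT mouse 170 at 12 h and WT mouse 146 at 0 h were each the lowest in 13 genes (37.1%), beside 17.9%, 21.7% and 22.5% of all probe sets. Medians of these 7 arrays lay between 7.07 and 7.23.

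**Figure D5:**
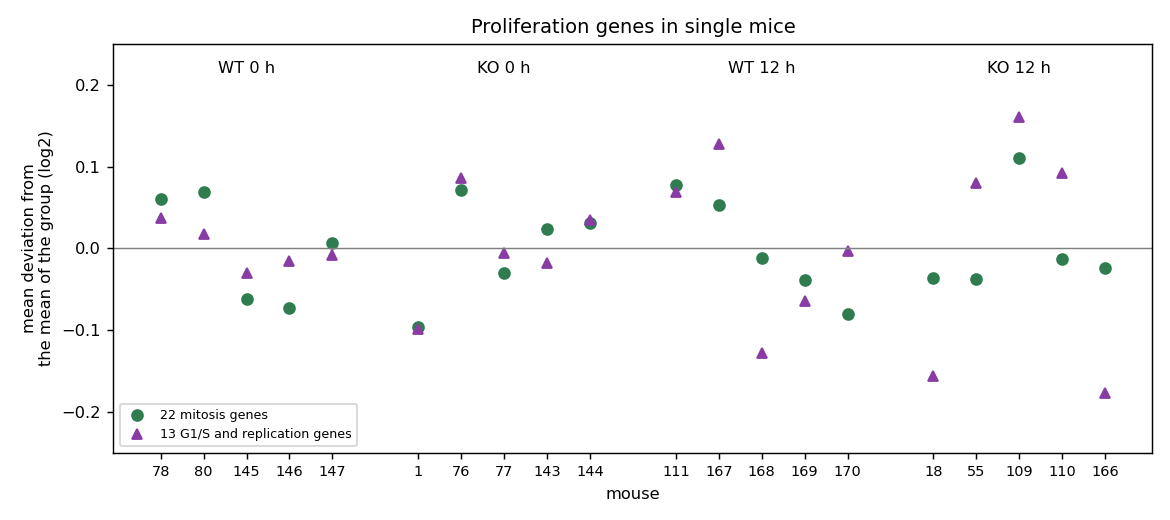
Mean deviation from the mean of its group (y axis, log2) for each mouse (x axis), over 22 mitosis genes (circles) and 13 G1/S and replication genes (triangles). KO mouse 109 is highest on both, and KO mice 18 and 166 are low for replication genes and near 0 for mitosis genes.

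The mean over the 22 mitosis genes was 6.33 to 6.47 in WT and 6.34 to 6.51 in KO at 0 h, and 6.22 to 6.37 in WT and 6.31 to 6.46 in KO at 12 h. That over the 13 G1/S and replication genes was 7.49 to 7.56 and 7.42 to 7.60 at 0 h, and 7.47 to 7.72 and 7.58 to 7.92 at 12 h. The SD between mice of the latter was 0.16 in KO and 0.10 in WT at 12 h and 0.07 and 0.03 at 0 h. The difference in spread was not tested. The 13 genes include Rrm2, which rose by 1.03 in WT and 1.23 in KO. Over the 34 measured genes other than Rrm2 the group mean was 6.79 at 0 h and 6.72 at 12 h in WT. In KO it was 6.81 at both times. These are values as deposited, and the mean of the array medians was itself 0.087 lower at 12 h in WT and 0.0594 lower in KO.

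Within groups the genes varied somewhat more than other probe sets, in a comparison not matched for level. Only 12 of the 35 genes lay above the median level of all probe sets. The median SD within groups was 0.174 over the 35 genes and 0.157 over all probe sets, and 23 of the 35 lay above the latter. Mcm6 had the largest, 0.36. After the group means were removed, deviations of pairs of genes over the 20 mice correlated with a median of 0.104 over 595 pairs, beside 0.003 over all pairs of probe sets. Pairs within mitosis had a median of 0.0685, pairs within G1/S and replication 0.217, and the 15 pairs of the 6 Mcm genes 0.361, all positive. Mcm5 and Mcm6 were the most alike at 0.793, and Mcm4 and Mcm7 the least at 0.0384. These correlations describe 20 mice whose genes share an array, and no test was made of them.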

How the data were processed

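Whole liver RNA of 20 mice was measured on single-colour arrays. The deposited table holds log2 values that the authors made with RMA, which corrects background, normalizes by quantiles and summarises probes. No version is stated for RMA. Of 35557 probe sets listed, 9868 had no value, so 25689 were used, 20777 of them assigned to 1 gene, 232 to several and 4680 to none. Of 2 probe sets of a gene the brighter was taken.

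The 4 groups were fitted together in limma 3.58.1 (R 4.3.3), with p-values adjusted by Benjamini-Hochberg over 25689 probe sets and called under 0.05. An exact permutation test over 252 regroupings was run for 5 against 5 mice and is not given, since for groups that do not overlap its p is fixed by their size. Alternatives were batch as a block, only the arrays compared, bright probe sets, quantile normalization, median centring, a trended robust prior, array weights, all probe sets of a gene, and leaving out each array. Precision rests on how many arrays there are, and mice are separate animals per the labels.

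The genes and lists were chosen with earlier results of these data known. Values per mouse are given for genes called for genotype and for up to 5 per direction called for time over both genotypes. They are also given for 8 textbook genes, except Ccnb1 and Pcna, which had no values. With no gene called for genotype, the 3 with the smallest p over both times were added. Up to 4 genes per direction are named from the other lists.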

Additional observations from a re-analysis of the deposited data

Results flagged for a closer look

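In 7 of the 152 groups of 5 mice examined, the highest or the lowest mouse stood apart from the other 4 by more than the gap allowed for 5 values, and chance alone flags about 1 in 20 groups, or 7.6 here. Of these, 5 were in KO mice. KO mouse 1 at 0 h read 6.079 for Ccna2, below the others at 6.475 to 6.604. KO mouse 55 at 12 h read 7.149 for Ccnb2 (others 6.802 to 6.864) and 7.243 for Cdk1 (6.914 to 6.996). KO mouse 143 at 0 h read 7.269 for Cdk1 (7.083 to 7.106). WT mouse 78 at 0 h read 7.382 for Aurkb (6.949 to 7.065), and WT mouse 168 at 12 h read 4.834 for Bub1 (5.401 to 5.628). The mean level of the mitosis genes in KO mouse 109 at 12 h was 6.46, above the others at 6.312 to 6.336.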

How the results depend on the processing

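For the 16 genes described by mouse, of 364 fold changes recomputed under other settings 330 kept their direction and side of the threshold, 22 were no longer called, 2 became called and 10 changed sign, and of 920 from fits without 1 mouse these numbers were 850, 44, 8 and 18. Over all 35 genes, calls for time were lost 22 times and gained 7 times under other settings: Kif23 and Mcm4 with quantile normalization and with centring, E2f1 in WT with only the arrays compared, and Prc1 and Top2a without KO mice 1 and 109, where 10 genes were called over both genotypes. In fits without 1 mouse 11 calls were gained, 4 of them for Cdk1 over both genotypes, without WT mouse 147, 111 or 167 or KO mouse 55, and 1 for Mcm4, without WT mouse 169. No gene was called for genotype under any setting run. The genes called for time in WT were 4 and became 2 with bright probe sets only, 2 after quantile normalization, 2 after median centring, and 2 without WT mice 80 and 170 together, an alternative chosen after seeing the data. Leaving out single mice gave 2 to 5, with 2 without WT mouse 78. Over both genotypes the 8 called became 5 with batch as a random block and 4 with bright probe sets only, and leaving out single mice gave 5 to 8, with 5 without WT mouse 80 or KO mouse 76. The bright setting leaves out genes such as Plk1 by construction, and the cause of the other changes was not tested. Small differences that were not called changed sign. Ccne1 in KO minus WT at 0 h was -0.029 with batch as a fixed block, -0.016 after quantile normalization, -0.013 after centring, -0.0093 with array weights and -0.0096 without WT mice 80 and 170, and ran from -0.065 to 0.066 without single mice. Top2a in KO minus WT over both times was -0.019 after quantile normalization, -0.022 after centring, -0.0080 without KO mice 1 and 109, also chosen after seeing the data, and -0.015 without WT mice 80 and 170, and ran from -0.058 to 0.057 without single mice. Mki67 in KO minus WT over both times ran from -0.049 to 0.017, and its time difference over both genotypes was 0.012 after centring. No paired analysis was possible because each mouse number occurs in 1 group. The table gives no background signal, so a dim probe set cannot be told from an absent one.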
